A study of Mus musculus with 15 samples.

Results

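The genes described here are 30 genes whose products are characteristic of macrophages, the phagocytes that live in most tissues and that arise from blood precursors and yolk sac progenitors. They were taken by name from the 37991 genes of a count table that follows mouse embryonic fibroblasts (MEFs) through cardiac reprogramming, with the older names Emr1 (now Adgre1) and Sfpi1 (now Spi1) as the table writes them. All 30 were found, and 29 had enough counts to be tested. The remaining gene, Aif1, is given by its counts. In brief, the genes were expressed in the starting MEFs, nearly all were far lower in day 9 cultures and in 2 passages of progenitors, where 11 to 14 of them had at most 3 counts over a group, and most were present again in cells differentiated from those progenitors.

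Macrophages depend on the growth factor receptor Csf1r and on the transcription factor PU.1, encoded by Sfpi1, which binds the promoters of many myeloid genes. Their surface carries receptors for antibodies, complement and lipids, many of which signal through the small adaptors Tyrobp and Fcer1g. They engulf particles and digest them with lysozyme, cathepsins and oxygen radicals, and tissue macrophages are a main source of the complement component C1q. The embryonic and adult heart holds a resident macrophage population.

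RNA was sequenced in 15 libraries, 3 in each of 5 groups, all from mice of mixed C57BL/6 and 129J/SvE background that the labels call wild type. The starting cells were secondary MEFs at passage 3. Such fibroblasts are made from reprogrammed cells whose inducible factors they keep, although the labels list no transgene. By day 9 the cells had been in reprogramming medium (6 days), in transdifferentiation medium (2 days) and in ieCPC basal medium with BACS (1 day). Induced expandable cardiovascular progenitor cells (ieCPCs) had been sorted on day 13 and were sampled at passage 3 (P3) and passage 12 (P12), and the CM derivatives were cardiac cells obtained by holding ieCPCs in differentiation medium for 25 days. The labels do not give the passage from which the CM derivatives were made, so they were compared with both.

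Library totals lay between 21823056 and 29996464 counts. Levels are CPM, counts divided by the TMM-scaled library size, a scaling that assumes most genes keep their level, and are given as mean ± SD over 3 libraries. CM libraries differed from the others in make-up: mitochondrial genes took 52.0% to 59.4% of their counts against 20.8% to 28.3% elsewhere, and their TMM factors were 0.545 to 0.643 against 0.973 to 1.22. CM replicate 3 stood apart, with a chi-square per degree of freedom of 28.7 to 45.6 against its fellow replicates, where other pairs of replicates gave 2.17 to 11.6. The 10 fibroblast marker genes summed to 16426 to 17243 CPM in MEFs, and to between 15558 and 23638 CPM in the other groups, highest in CM derivatives, so they were present in MEFs but did not set them apart. The 12 cardiomyocyte genes summed to 14471 to 30083 CPM in CM derivatives against 13.8 to 16.4 CPM in MEFs. Whether replicates were separate cultures is not in the labels, so the spread behind each p-value is that between these samples and may be technical. In bulk RNA, fewer macrophages, less RNA per macrophage and expression of these genes by other cells cannot be told apart.

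The summed level of the 30 genes was 487, 466 and 475 CPM in the MEF libraries, 13.1 ± 0.835 CPM at day 9, 41.9, 41.5 and 43.5 CPM in P3 ieCPCs, 31.0, 30.4 and 28.5 CPM in P12 ieCPCs and 223, 285 and 224 CPM in CM derivatives. The 5 groups did not overlap. Day 9 stood at 2.75% of the MEF mean and CM derivatives at 51.3%. Much of this sum is lysozyme: without Lyz2 the means were 260 ± 4.13 CPM in MEFs, 10.9 ± 0.784 at day 9, 11.1 ± 0.628 at P3, 14.9 ± 0.647 at P12 and 101 ± 13.7 in CM derivatives, or 38.8% of the MEF mean. What was left in the middle of the course came largely from 4 genes, Lyz2, Cd68, Csf1r and Mrc1, the members whose mean exceeded 1 CPM at day 9, at P3 and at P12. Over the other 26 genes, a split chosen after their values were seen, the sum was 209 ± 6.20 CPM in MEFs, 3.95 ± 0.489 at day 9, 2.18 ± 0.473 at P3, 3.21 ± 0.336 at P12 and 77.7 ± 11.8 in CM derivatives. These sums describe the genes and carry no test.

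**Figure D1:**
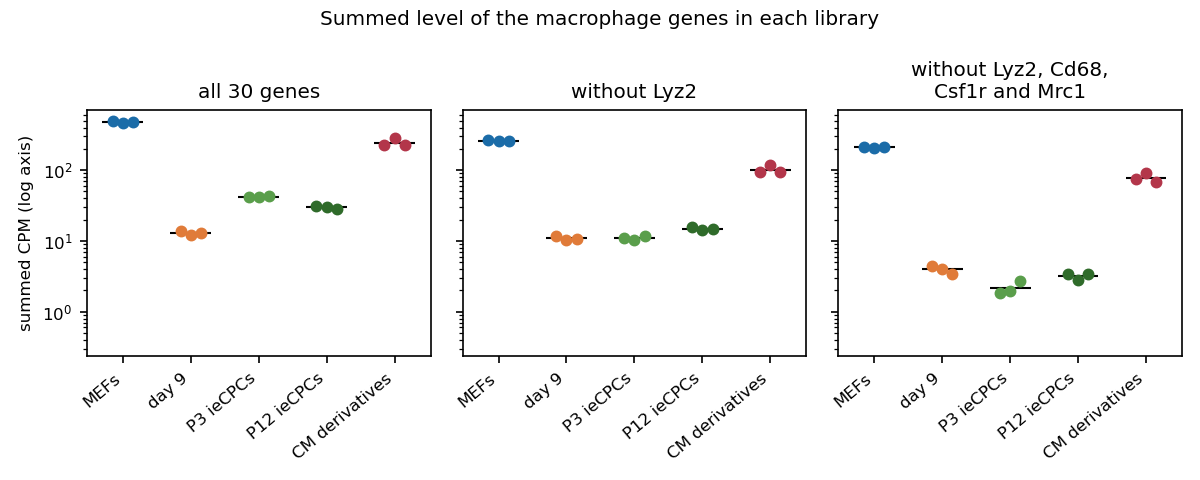
Summed CPM of the macrophage genes in each library on a log axis, for all 30 genes, without Lyz2, and without Lyz2, Cd68, Csf1r and Mrc1. Each point is 1 library and each line a group mean; the MEF libraries lie at 466 to 487 CPM for all 30 genes and the CM libraries at 223 to 285 CPM.

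Counted gene by gene, 28 of the 30 members had a mean over 1 CPM in MEFs, 4 at day 9, 4 at P3, 4 at P12 and 21 in CM derivatives. At day 9, 6 members had 0 counts over the 3 libraries (Tyrobp, Sfpi1, C1qa, C1qb, C1qc and Fcgr2b). At P3 these were 7 (Emr1, Cd52, C1qa, C1qb, C1qc, Fcgr1 and Trem2), and at P12 again 7, with Cx3cr1 in place of Fcgr1. No member had 0 counts over the group in MEFs or in CM derivatives. At the depth of these libraries, a count of 0 in a library allows a level of up to 0.0999 to 0.184 CPM, a limit that, like the intervals below, covers counting error only.

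**Figure D2:**
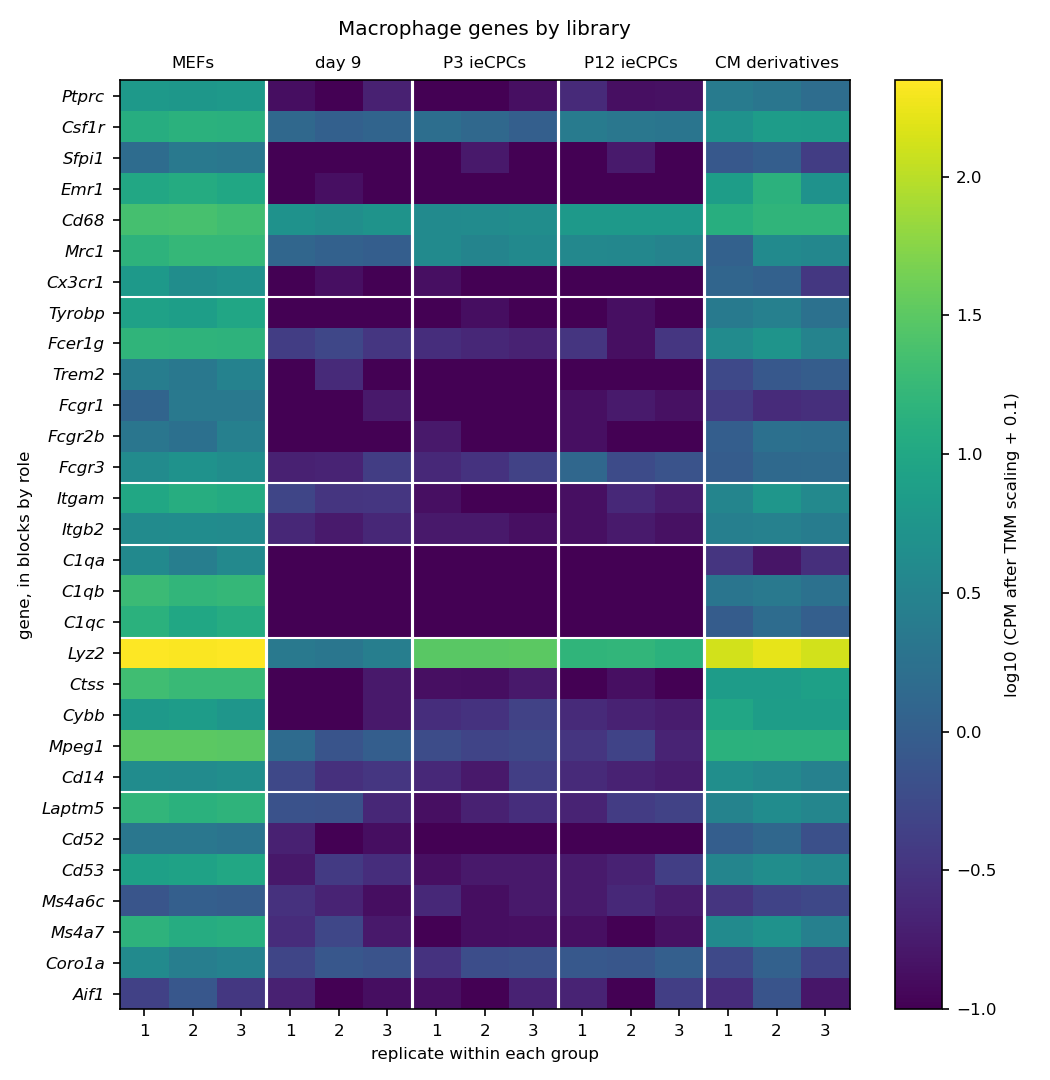
Level of each of the 30 macrophage genes in each of the 15 libraries, as log10 of CPM plus 0.1, with genes in blocks by role and libraries in groups of 3. MEFs and CM derivatives show signal in nearly every row, whereas at day 9, P3 and P12 only Lyz2, Cd68, Csf1r and Mrc1 have group means over 1 CPM.

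Because the genes moved together, their promoters were read for the letters that PU.1 and its ETS relatives are known to bind, GAGGAA, on both strands. RefSeq promoters on GRCm38.p6, from 250 bases before the gene's start to 50 bases after it, were matched by symbol for 22 of the 30 members, and GAGGAA or its reverse complement TTCCTC occurred in 15 of these (68.2%), compared with 28.3% of the promoters of all 27025 genes. The C/EBP letters TTGCNNAA occurred in 3 of 22 (13.6%) against 10.8% of all promoters, and the AP-1 letters TGANTCA in 3 of 22 against 7.93%. No match of any of these motifs overlapped a match of another in the members' promoters. The promoters not matched were those of Csf1r, Emr1, Tyrobp, Cd52, Sfpi1, C1qa, Cd14 and Itgb2. A match is a string of letters and not a shown binding site. The promoters of 4 members are shown. C1qb and C1qc were at 0 counts from day 9 to P12 and, of the members with a matched promoter, came back least, and Cybb came back most. Itgam held 3 matches. Mrc1, not shown, held 3 as well and was not called in CM derivatives against P12. Each runs 5′ to 3′ in the gene's direction, with GAGGAA or TTCCTC in capitals.
C1qb, GRCm38.p6 chr4:136886151-136886450, minus strand: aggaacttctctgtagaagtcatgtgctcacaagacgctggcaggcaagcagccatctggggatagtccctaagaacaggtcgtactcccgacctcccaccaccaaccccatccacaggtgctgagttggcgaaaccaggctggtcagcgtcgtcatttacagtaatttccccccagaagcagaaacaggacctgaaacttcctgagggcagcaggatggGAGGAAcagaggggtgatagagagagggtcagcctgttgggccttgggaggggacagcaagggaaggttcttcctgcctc
C1qc, GRCm38.p6 chr4:136892865-136893164, minus strand: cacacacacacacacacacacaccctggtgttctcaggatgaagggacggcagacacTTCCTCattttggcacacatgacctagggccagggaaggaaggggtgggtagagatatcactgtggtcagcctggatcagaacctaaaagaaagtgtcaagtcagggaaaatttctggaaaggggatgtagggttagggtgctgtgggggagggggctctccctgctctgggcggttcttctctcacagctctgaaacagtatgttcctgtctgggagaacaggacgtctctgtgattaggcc
Cybb, GRCm38.p6 chrX:9469275-9469574, minus strand: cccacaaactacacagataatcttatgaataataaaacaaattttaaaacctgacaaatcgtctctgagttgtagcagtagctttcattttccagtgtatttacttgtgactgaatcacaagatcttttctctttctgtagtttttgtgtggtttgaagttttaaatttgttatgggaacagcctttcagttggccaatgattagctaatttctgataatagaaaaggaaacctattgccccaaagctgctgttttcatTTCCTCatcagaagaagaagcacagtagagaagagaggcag
Itgam, GRCm38.p6 chr7:128062390-128062689, plus strand: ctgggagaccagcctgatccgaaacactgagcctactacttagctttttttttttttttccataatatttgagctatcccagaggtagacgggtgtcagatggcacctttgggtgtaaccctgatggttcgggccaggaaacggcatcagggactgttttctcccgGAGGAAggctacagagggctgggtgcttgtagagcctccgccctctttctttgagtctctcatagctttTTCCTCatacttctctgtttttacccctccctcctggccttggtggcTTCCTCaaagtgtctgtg
Counting the start as position 1, the match began at -30 in C1qb, at -193 in C1qc, at 10 in Cybb, and at -84, -15 and 33 in Itgam. Lyz2, Fcer1g, Coro1a, Mpeg1, Fcgr2b, Ms4a6c and Cx3cr1 had no match in this window.

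Comparing day 9 cultures with MEFs asked what the first days of reprogramming did to these genes. All 29 tested members fell and none rose (edgeR, quasi-likelihood, Benjamini-Hochberg adjusted p under 0.05), against 27.4% of all 17999 tested genes that were called lower and 29.7% that were called higher. The largest adjusted p among the 29 was 2.59e-05, for Ms4a6c. Their median log2 fold change was -5.70, beside 0.05 over all tested genes. Because the members were listed with earlier results of these data known, these values describe the list and do not test it. Members with few or no counts at day 9 had enough counts to be tested only through other groups.

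Among genes of identity, Ptprc, the pan-leukocyte phosphatase CD45 (chromosome 1, 139959438 to 140071882, mm9), had 166, 145 and 181 counts in the MEF libraries and 1, 0 and 3 at day 9. The 2 groups were far apart, and Ptprc fell 120-fold, a log2 fold change of -6.91 ± 0.39 (SE, adjusted p = 5.53e-13, edgeR). Emr1, an adhesion receptor used as a surface marker of mouse macrophages, went from 259, 285 and 276 counts to 0, 1 and 0, a ratio of 883 (95% counting interval 158 to 34930). Cx3cr1, the receptor for the chemokine fractalkine and a marker of tissue macrophages and microglia, likewise went from 163, 108 and 139 counts to 0, 1 and 0. Sfpi1, the gene of PU.1 (chromosome 2, 90922547 to 90955913), had 37, 53 and 57 counts in MEFs and 0 at day 9, at least 52.8-fold lower when 3 counts are placed over the day 9 group.

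The other 3 identity genes fell less. Cd68, a lysosomal membrane glycoprotein that other cells express at low level, stood at 23.1, 23.2 and 20.7 CPM in MEFs and 4.93, 4.40 and 5.06 CPM at day 9, with no overlap and a 4.64-fold fall. Csf1r, the receptor for Csf1 and interleukin-34, fell 11.8-fold from 13.0 ± 0.846 to 1.09 ± 0.142 CPM. Its exons share 871 bases with Hmgxb3 on the opposite strand, which had 1378 counts in MEFs and 1835 at day 9, and because the strand setting of the counting is not given, reads of the 2 genes in that stretch cannot be told apart. Mrc1, the mannose receptor that macrophages and some endothelial cells carry, fell 15.7-fold from 16.1 ± 1.38 to 1.01 ± 0.140 CPM.

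The signalling adaptors went the same way. Tyrobp (chromosome 7, 31198807 to 31202596), which relays signals from Trem2 and other receptors, had 214, 186 and 272 counts in MEFs and none at day 9, at least 241-fold lower. Fcer1g, the common chain of activating antibody receptors, kept a few reads, with 401, 376 and 418 counts in MEFs and 9, 11 and 7 at day 9, and fell 46.9-fold. Of the antibody receptors, the inhibitory Fcgr2b went from 51, 41 and 78 counts to 0, at least 61.0-fold lower, the high-affinity Fcgr1 went from 29, 53 and 62 counts to 0, 0 and 2, and the low-affinity activating Fcgr3 fell 24.4-fold to 3, 3 and 9 counts. Fcgr2b and Fcgr3 are close relatives that lie 74621 bases apart on chromosome 1, so reads may be split between them. Trem2, a receptor for lipids, fell 48.4-fold, and all 4 of its day 9 counts were in replicate 2. The complement receptor chain Itgam (CD11b) fell 36.8-fold and its partner Itgb2 (CD18), the beta chain of leukocyte integrins, fell 33.2-fold.

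The C1q genes, which encode the 3 chains of the molecule that starts the classical complement pathway, were at 0 counts in all 9 libraries from day 9 to P12. They lie side by side on chromosome 4 (136436044 to 136454718, mm9, 18675 bases) with gaps of 3616 and 2851 bases and no other gene of the table between them. In MEFs C1qb had 488, 395 and 483 counts, C1qc 351, 243 and 331, and C1qa 99, 65 and 103. With 3 counts placed over the day 9 group they were at least 490-fold, 332-fold and 95.9-fold lower. These 3 bounds rank the genes by their MEF counts and give no order of loss.

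Genes of killing and digestion held the most abundant member. Lyz2, the lysozyme of macrophages and other myeloid cells (chromosome 10, 116714390 to 116719377), stood at 222, 210 and 216 CPM in MEFs and at 2.16, 1.93 and 2.56 CPM at day 9. The groups were far apart, and Lyz2 fell 96.6-fold (log2 fold change -6.59 ± 0.11, adjusted p = 4.83e-22, edgeR). Per kilobase of transcript Lyz2 had 164 CPM in MEFs, ahead of Fcer1g at 18.8, Cd68 at 17.8 and C1qb at 15.8 CPM per kilobase. Its near-identical neighbour Lyz1 had 7 counts over the MEF libraries against 17168 for Lyz2, and how reads shared by the pair were counted is not given. Ctss, the lysosomal protease cathepsin S, went from 536, 463 and 529 counts to 0, 0 and 2, a ratio of 823 (95% counting interval 227 to 6802). Mpeg1, a pore-forming protein of the phagosome, fell 31.7-fold from 31.5 ± 0.485 to 0.977 ± 0.385 CPM. Cybb, the catalytic subunit of the phagocyte oxidase, went from 165, 172 and 158 counts to 0, 0 and 2, and Cd14, the co-receptor for bacterial lipopolysaccharide, fell 14.0-fold to 13, 5 and 7 counts.

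The remaining tested genes encode membrane and cytoskeletal proteins of leukocytes. Laptm5, a lysosomal membrane protein, fell 34.0-fold, the tetraspanin Cd53 fell 52.1-fold, the small surface glycoprotein Cd52 fell 38.3-fold and the four-pass membrane protein Ms4a7 fell 59.9-fold. Ms4a6c, of the same gene family, fell 6.76-fold from 0.817 ± 0.144 CPM, and Coro1a, an actin-binding coronin of blood cells, fell 5.42-fold. These last 2, with Cd68, had the smallest falls. The exons of Cd52, which had 3, 0 and 1 counts at day 9, share 172 bases with Aim1l on the opposite strand. Aim1l had 10 counts over the MEF libraries and 129 at day 9, and reads of Cd52 and Aim1l in that stretch cannot be told apart. Aif1, a calcium-binding protein of macrophages and microglia, had 9, 18 and 7 counts in MEFs and 3, 0 and 1 at day 9, too few for the test.

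The step from day 9 to P3 ieCPCs covered the sort on day 13 and the first passages. Of the 29 tested members, 3 rose and 4 fell, beside 28.4% and 32.3% of all tested genes. Lyz2 rose 14.0-fold to 30.7, 31.1 and 31.8 CPM, Mrc1 rose 3.58-fold to 3.95, 3.17 and 3.82 CPM, and Cybb rose from 0, 0 and 2 counts to 5, 6 and 10, a ratio of 10.5 (95% counting interval 2.58 to 92.7). For Lyz2 and Mrc1 the 3 libraries of each group lay close together and the groups were apart. Its neighbour Lyz1 had 1 count at day 9 and 73 at P3, beside 191 and 2664 for Lyz2.

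The 4 genes that fell from day 9 to P3 were already low. Itgam went from 12, 6 and 7 counts to 1, 0 and 0, Mpeg1 from 42, 17 and 26 to 14, 11 and 12, Laptm5 from 18, 15 and 4 to 1, 3 and 5, and Ms4a7 from 5, 11 and 2 to 0, 1 and 1. Laptm5 counts of the 2 groups overlapped in range. Without day 9 replicate 2, which held 11 of the 18 counts, Ms4a7 was no longer called (adjusted p = 0.0806, edgeR). The other 22 tested members were not called, and Ptprc, Emr1, Tyrobp, Sfpi1, Ctss, Trem2, Cx3cr1, Fcgr1, Fcgr2b and the C1q genes had at most 4 counts in each of the 2 groups.

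Between P3 and P12 ieCPCs, 3 members rose and 1 fell, against 17.3% and 19.5% of all tested genes. At P3, 7 members had 0 counts and 7 had 1 to 3 over the group, and at P12 these were 7 and 5. Members so low in both groups could hardly be called. Lyz2 fell 2.06-fold to 15.4, 16.1 and 13.8 CPM, with no overlap (adjusted p = 2.48e-09, edgeR), and was the only member that fell in the fit to all libraries. Cd68 rose 1.55-fold from 3.88, 4.04 and 4.21 to 6.31, 6.11 and 6.32 CPM, and Csf1r rose 1.71-fold to 2.36, 2.01 and 1.89 CPM. Fcgr3 rose 3.25-fold, from 4, 6 and 10 counts to 32, 13 and 16, with P12 replicate 1 the highest. Mrc1, at 3.32 ± 0.229 CPM, was not called. Ptprc had 1 count over the P3 libraries and 6 over the P12 libraries.

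Comparing CM derivatives with ieCPCs asked what differentiation did to the genes. Against P12, 26 of the 29 tested members rose and none fell, beside 31.3% and 30.8% of all tested genes, and the median log2 fold change was 4.99, or 4.57 with genes at 0 counts set to their bound, beside -0.02 over all tested genes. Against P3, 27 rose and none fell, beside 31.9% and 31.2% of all tested genes, with a median of 5.40, or 4.93 with such genes at their bound. Without CM replicate 3, the counts were 24 against P12 and 27 against P3. Members lower at day 9 than in MEFs and higher in CM derivatives than at P12 numbered 26 of the 30 (86.7%), a pattern shown by 11.3% of all tested genes. The members without it were Coro1a, Fcgr3, Mrc1 and the untested Aif1. Of the 26, 22 were also lower in CM derivatives than in MEFs, which 3.43% of all tested genes shared. The members were listed with earlier results of these data known, so these shares describe the list and do not test the pattern. Members with few or no counts at day 9 and in ieCPCs had enough counts to be tested only through MEFs or CM derivatives. The cardiomyocyte genes and the mitochondrial share of counts moved with the CM group as well, and their part in these differences was not tested.

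Ptprc had 43, 37 and 24 counts in the CM libraries against 4, 1 and 1 at P12, with no overlap, and rose 24.2-fold (log2 fold change 4.59 ± 0.44, adjusted p = 3.94e-09, edgeR). Emr1, at 0 counts in all 6 ieCPC libraries, had 130, 265 and 81 counts in CM derivatives, at least 235-fold higher than P12. CM replicate 2 was the highest and replicate 3 the lowest, a spread of 13.9 to 4.95 CPM within the group. Sfpi1 rose from 0, 2 and 0 counts at P12 to 13, 17 and 5, a ratio of 26.0 (95% counting interval 6.67 to 223). Csf1r and Cd68, which had kept some signal, rose 2.98-fold and 2.30-fold, to 4.98, 7.03 and 6.67 CPM and to 12.4, 15.5 and 15.2 CPM. Cx3cr1 went from 0 counts to 20, 19 and 4.

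Tyrobp rose from 1 count over the P12 libraries to 41, 52 and 27, a ratio of 178 (95% counting interval 31.3 to 7090), and Fcer1g rose 24.5-fold to 71, 102 and 49 counts. Trem2, at 0 counts at P3 and P12, had 8, 14 and 14. Fcgr2b had 16, 31 and 25 counts against 1 over the P12 libraries. Fcgr1 rose only to 5, 3 and 3 counts from 1, 2 and 1, an adjusted p of 0.048 by edgeR that passed the threshold in this fit and in few others, since leaving out any single library of either group gave 0.0539 to 0.153. Fcgr3 had 15, 25 and 22 counts in CM libraries beside 32, 13 and 16 at P12 and was not called (adjusted p = 0.15, edgeR); without P12 replicate 1 it was called higher in CM derivatives (log2 fold change 1.07, adjusted p = 0.0178). The integrin pair rose together in the same libraries, Itgam 45.4-fold to 58, 109 and 60 counts and Itgb2 48.4-fold to 48, 55 and 40 counts.

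The C1q genes rose from 0 counts, to 34, 41 and 27 for C1qb, 15, 27 and 15 for C1qc, and 4, 1 and 3 for C1qa, at least 50.4-fold, 28.2-fold and 3.96-fold higher than P12. Lyz2 rose 9.49-fold to 130, 169 and 132 CPM. Ctss rose from 1 count over the P12 libraries to 123, 135 and 129, and Mpeg1 rose 56.3-fold to 13.5, 14.0 and 13.9 CPM, with little spread among CM replicates. Cybb rose 67.2-fold to 170, 137 and 118 counts and Cd14 rose 30.8-fold to 79, 69 and 47 counts.

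Laptm5 rose 13.7-fold, Cd53 21.7-fold and Ms4a7 from 2 counts to 211 over the group. Cd52 rose from 0 counts to 16, 23 and 9; its exons share 172 bases with Aim1l on the opposite strand, which had 15 counts over the CM libraries and 13 over the P12 libraries. Ms4a6c rose from 2, 4 and 2 counts to 4, 7 and 7, and was not called when P12 replicate 1, P12 replicate 3, CM replicate 2 or CM replicate 3 was left out (adjusted p of 0.0536 to 0.0705, edgeR). Coro1a had 19, 19 and 24 counts at P12 and 8, 19 and 6 in CM derivatives, overlapping and not called. Mrc1 was not called either, with 1.01, 3.93 and 3.49 CPM in CM libraries beside 3.50, 3.40 and 3.06 CPM at P12, CM replicate 1 lying far below its fellows. Aif1 had 3, 12 and 1 counts in CM libraries and 3, 0 and 8 at P12.

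Against MEFs, the return was incomplete for most genes and very uneven. Of the 29 tested members 25 were lower in CM derivatives than in MEFs and none was called higher, beside 34.7% and 35.9% of all tested genes, with a median log2 fold change of -1.50 beside 0.03 over all. Without CM replicate 3 the count of lower members was again 25. The level in CM derivatives was between 4.59% and 127% of the MEF mean, with a median of 36.3% over the 30 members. The 4 tested members not called lower were Cybb, Cd14, Emr1 and Fcgr2b.

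**Figure D3:**
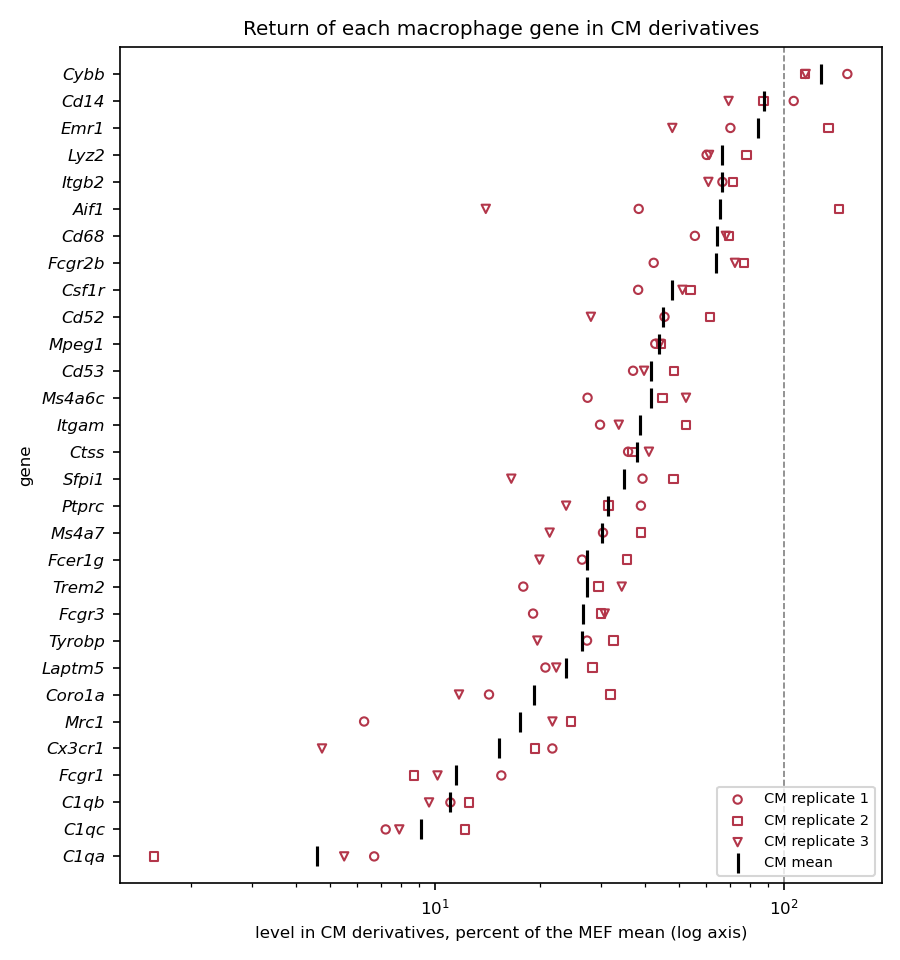
Level of each macrophage gene in the 3 CM libraries as a percent of its MEF mean, on a log axis, with the mean of the 3 as a bar and a dashed line at 100%. Cybb, Cd14 and Emr1 stand at the top and C1qb, C1qc and C1qa at the bottom, at 11.1%, 9.11% and 4.59%.

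Cybb had 9.51, 7.18 and 7.22 CPM in CM libraries against 6.33, 6.89 and 5.55 CPM in MEFs. Each CM library lay above each MEF library, yet the difference, a log2 fold change of 0.35 ± 0.17, did not pass the threshold (adjusted p = 0.0689, edgeR), whereas it passed by limma voom (0.0252) and with a stricter filter on low counts in edgeR (0.0461). Cd14 stood at 87.8% of its MEF mean, with 4.42, 3.62 and 2.88 CPM against 4.11, 3.96 and 4.35 CPM, and the groups overlapped. Emr1 stood at 84.1%, with CM replicates at 70.3%, 134% and 47.9% of the MEF mean; without CM replicate 2 it was called lower (log2 fold change -0.76, adjusted p = 0.00109, edgeR). Fcgr2b stood at 63.9% (adjusted p = 0.084, edgeR; 0.0383 by limma voom).

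At the other end, C1qb was 8.97-fold lower than in MEFs (log2 fold change -3.16 ± 0.16, adjusted p = 1.29e-11, edgeR), with 1.90, 2.15 and 1.65 CPM against 18.7, 15.8 and 17.0 CPM. C1qc was 10.8-fold lower and C1qa 21.6-fold lower, and neither gene's groups overlapped. Fcgr1 stood at 11.5% of the MEF mean, Cx3cr1 at 15.3%, Mrc1 at 17.5% and Coro1a at 19.3%. Between these ends lay Lyz2 at 66.4%, Itgb2 at 66.3%, Cd68 at 64.4%, Csf1r at 47.8%, Mpeg1 at 43.8%, Itgam at 38.6%, Ctss at 37.9%, Sfpi1 at 34.7%, Ptprc at 31.4%, Fcer1g at 27.3% and Tyrobp at 26.5%.

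The make-up of the signal therefore differed between MEFs and CM derivatives. As a share of the summed CPM of the members other than Lyz2, a measure that does not depend on how the libraries are scaled to each other, Cybb made up 2.41% ± 0.277 in MEFs and 8.03% ± 2.01 in CM derivatives. Emr1 went from 3.98% to 8.33%, Cd68 from 8.58% to 14.3%, Cd14 from 1.59% to 3.64% and Itgb2 from 1.55% to 2.66%. In the other direction C1qb went from 6.59% to 1.88%, C1qc from 4.45% to 1.03%, C1qa from 1.28% to 0.161%, Mrc1 from 6.18% to 2.73% and Fcgr1 from 0.696% to 0.210%. In all, 5 members had a higher share in each CM library than in any MEF library and 12 a lower one. Shares of a sum depend on each other, so lower shares of some members raise those of others. No such count was made for other genes, so the 5 and 12 have no share over all genes beside them. By level, 35.9% of all tested genes were called higher and 34.7% lower in CM derivatives than in MEFs. An exact permutation test of 3 libraries against 3 cannot give a p below 0.1, so the shares carry no test.

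**Figure D4:**
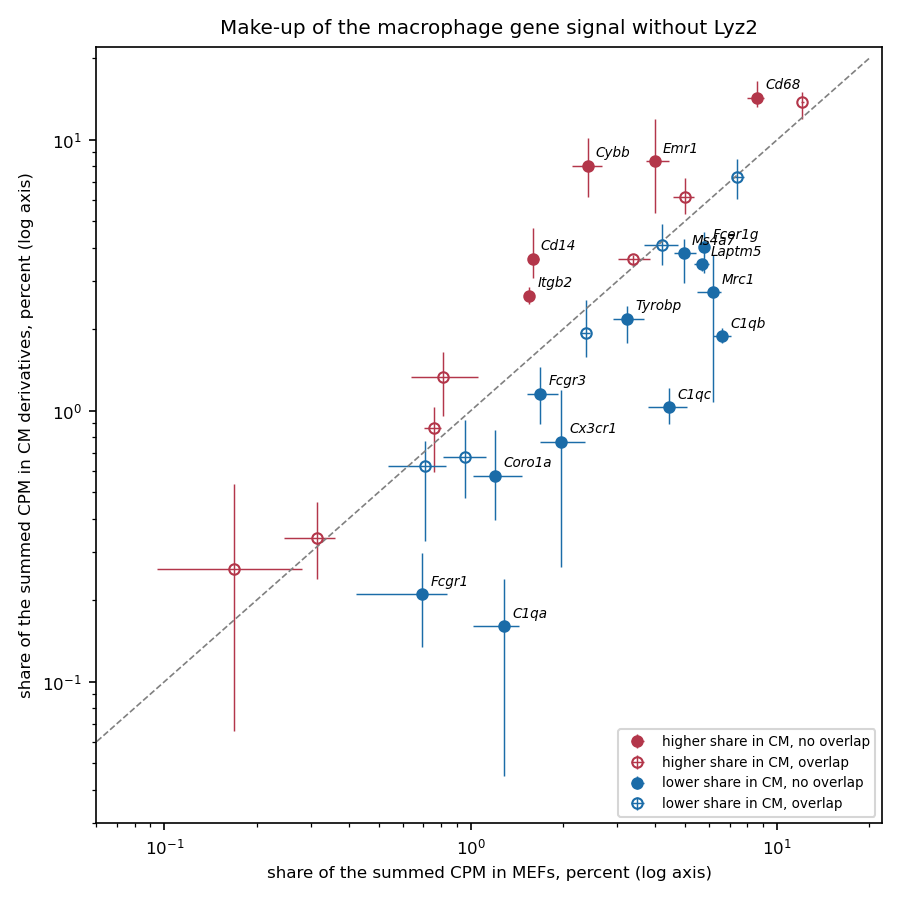
Share of each macrophage gene in the summed CPM of the members other than Lyz2, in MEFs and in CM derivatives, both on log axes, with bars from the lowest to the highest library and a dashed line of equal shares. The 5 named genes above the line (Cybb, Emr1, Cd68, Cd14 and Itgb2) and the 12 named genes below it have ranges that do not overlap between the groups.

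Ratios of counts within a library do not depend on scaling either. There were 2.96, 2.30 and 3.06 counts of C1qb for each count of Cybb in the MEF libraries and 0.200, 0.299 and 0.229 in the CM libraries, with no overlap. For C1qb over Ctss the means were 0.892 ± 0.0339 and 0.263 ± 0.0486, and for Cd14 over C1qb 0.242 ± 0.0201 and 1.92 ± 0.354. Other pairs shifted less. Emr1 over Ctss was 0.540 ± 0.0681 in MEFs and 1.22 ± 0.682 in CM derivatives, with no overlap but a wide spread among CM replicates. C1qa over C1qb was 0.194 ± 0.0256 and 0.0844 ± 0.0521, with no overlap and few C1qa counts in CM libraries. C1qb over C1qc was 1.49 ± 0.121 and 1.86 ± 0.378, overlapping. Fcer1g over its fellow adaptor Tyrobp was 1.81 ± 0.248 in MEFs and 1.84 ± 0.116 in CM derivatives, overlapping, and Mpeg1 over Ctss was 1.64 ± 0.0745 and 1.90 ± 0.121, a small shift with no overlap. The integrin chains shifted more, Itgam over Itgb2 being 2.71 ± 0.261 in MEFs and 1.56 ± 0.391 in CM derivatives.

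Lists of other macrophage-related genes followed in part. Over all tested genes, 27.4% were called lower and 29.7% higher at day 9 against MEFs. In CM derivatives against P12, 31.3% were called higher and 30.8% lower. Each list count below is to be read beside these shares. Of 24 further leukocyte surface and cytoskeletal genes, 22 were tested, of which 18 fell and 1 rose at day 9 against MEFs and 17 rose in CM derivatives against P12. Lcp1, an actin-bundling protein of leukocytes, had 35.0 ± 0.116 CPM in MEFs, 7.03 ± 0.714 at day 9, 3.35 ± 0.451 at P12 and 16.2 ± 1.01 in CM derivatives. Of 14 tested Toll-like and pattern receptor genes, 10 fell and 3 rose at day 9, and 13 rose in CM derivatives against P12. Tlr4, the lipopolysaccharide receptor, was among those that rose at day 9, by 2.06-fold, and was 3.34-fold higher in CM derivatives than in MEFs. Of 15 tested genes of adaptor signalling and leukocyte kinases, 9 fell and 4 rose at day 9 and 11 rose in CM derivatives. In this list Fyb, an adaptor of blood cells, had 8.43 ± 0.852 CPM in MEFs, 0.556 ± 0.106 at day 9 and 9.18 ± 1.54 in CM derivatives, whereas the kinase gene Syk was not called at day 9, was at 0.094 ± 0.0419 CPM at P3 and at 7.45 ± 1.91 CPM in CM derivatives.

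Among the partners of Cybb in the phagocyte oxidase, Cyba, the membrane partner, had 14.0 ± 1.99 CPM in MEFs and 6.78 ± 1.00 in CM derivatives, a 2.06-fold difference, and was not called between P12 and CM derivatives. Rac2, the blood-cell GTPase of the complex, had 307 counts over the MEF libraries, 3 at each of day 9, P3 and P12, and 109 in CM derivatives.

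Of the 14 macrophage transcription factors other than Sfpi1, 7 fell and 1 rose at day 9 and 9 rose and 1 fell in CM derivatives against P12. The leading gene of this list, Runx1, which blood and other tissues use, fell 1.61-fold at day 9, where it had 69.0 ± 2.42 CPM, rose to 221 ± 3.58 CPM at P3, stood at 225 ± 4.51 CPM at P12 and was 2.33-fold higher in CM derivatives than in MEFs, at 260 ± 18.5 CPM. Maf, a factor of tissue macrophages and of other cells, had 14.7 ± 1.39 CPM in MEFs, 16.3 ± 1.01 at day 9, 56.6 ± 2.08 at P3, 21.0 ± 1.65 at P12 and 101 ± 7.44 in CM derivatives. Both were thus high at P3, where most members were at few counts. Among growth factors, Csf1, the ligand of Csf1r, had its highest level in CM derivatives: 74.9 ± 5.25 CPM in MEFs, 152 ± 6.08 at day 9, 72.0 ± 4.24 at P3, 77.9 ± 2.34 at P12 and 285 ± 57.8 in CM derivatives. At day 9 it rose 2.03-fold while the members fell. The ligand of Cx3cr1, Cx3cl1, rose 4.28-fold at day 9 and was 3.37-fold higher in CM derivatives than at P12. Tgfb1 went the other way, called lower at day 9 against MEFs and in CM derivatives against P3, P12 and MEFs. Of the 10 growth factors and cytokines listed, 5 were tested. Of these, 3 rose and 1 fell at day 9, and 3 rose and 1 fell in CM derivatives against P12.

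Lysosomal enzymes, which all cells make but macrophages make in quantity, were called in the same directions at smaller size. Of 18 tested, 13 fell and 3 rose at day 9, and all 18 rose in CM derivatives against P12, with medians of -0.44 and 1.03 on the log2 scale. Ctsd, cathepsin D, had 369 ± 8.05 CPM in MEFs, 284 ± 11.3 at day 9 and 1324 ± 110 in CM derivatives, 3.59-fold above MEFs. Of 11 tested scavenger and efferocytosis genes 9 rose and 2 fell in CM derivatives against P12. Of 11 tested complement and clearance genes other than C1q, 8 were higher and 3 lower in CM derivatives than in MEFs, beside 35.9% and 34.7% of all tested genes. The higher ones included C3, at 0.709 ± 0.233 CPM in MEFs and 1308 ± 52.7 in CM derivatives and Apoe, at 13.4 ± 0.646 and 336 ± 62.5, genes that many cell types express. The lower ones were C3ar1 and C5ar1, receptors for complement fragments on myeloid cells, and Cfp, named here as the full set of 3 after their values were seen. C3ar1 had 2901 counts over the MEF libraries, 75 at day 9, 61 at P3, 130 at P12 and 712 in CM derivatives, and C5ar1 had 1199, 9, 4, 2 and 56.

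Lists of more specific macrophage states gave mixed counts. Over all tested genes, 27.4% were called lower and 29.7% higher at day 9, and 31.3% higher and 30.8% lower in CM derivatives against P12. In lists this short, counts near those shares set no list apart. Of 8 tested markers of resident macrophage subsets, 4 fell and 1 rose at day 9 and 4 rose and 2 fell in CM derivatives against P12. Among them Stab1, a scavenger receptor of resident macrophages and endothelium, had 969 counts over the MEF libraries, 30 at day 9, 67 at P12 and 142 in CM derivatives. Of 8 tested microglia markers 3 fell and 2 rose at day 9, of 4 monocyte markers 3 fell, of 8 osteoclast markers 3 fell and 4 rose, and of 8 dendritic cell markers none fell and 3 rose. Of 8 inflammatory activation genes 5 fell and 1 rose at day 9 and 5 rose and 1 fell in CM derivatives against P12, and of 4 alternative activation genes 2 fell and 2 rose and then 3 rose. Of 10 receptors for cytokines and growth factors 4 fell and 1 rose at day 9 and 7 rose and 1 fell in CM derivatives. Endothelial markers, 7 tested, gave 4 higher and 1 lower at day 9 and 2 higher and 3 lower in CM derivatives against P12.

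**Figure D5:**
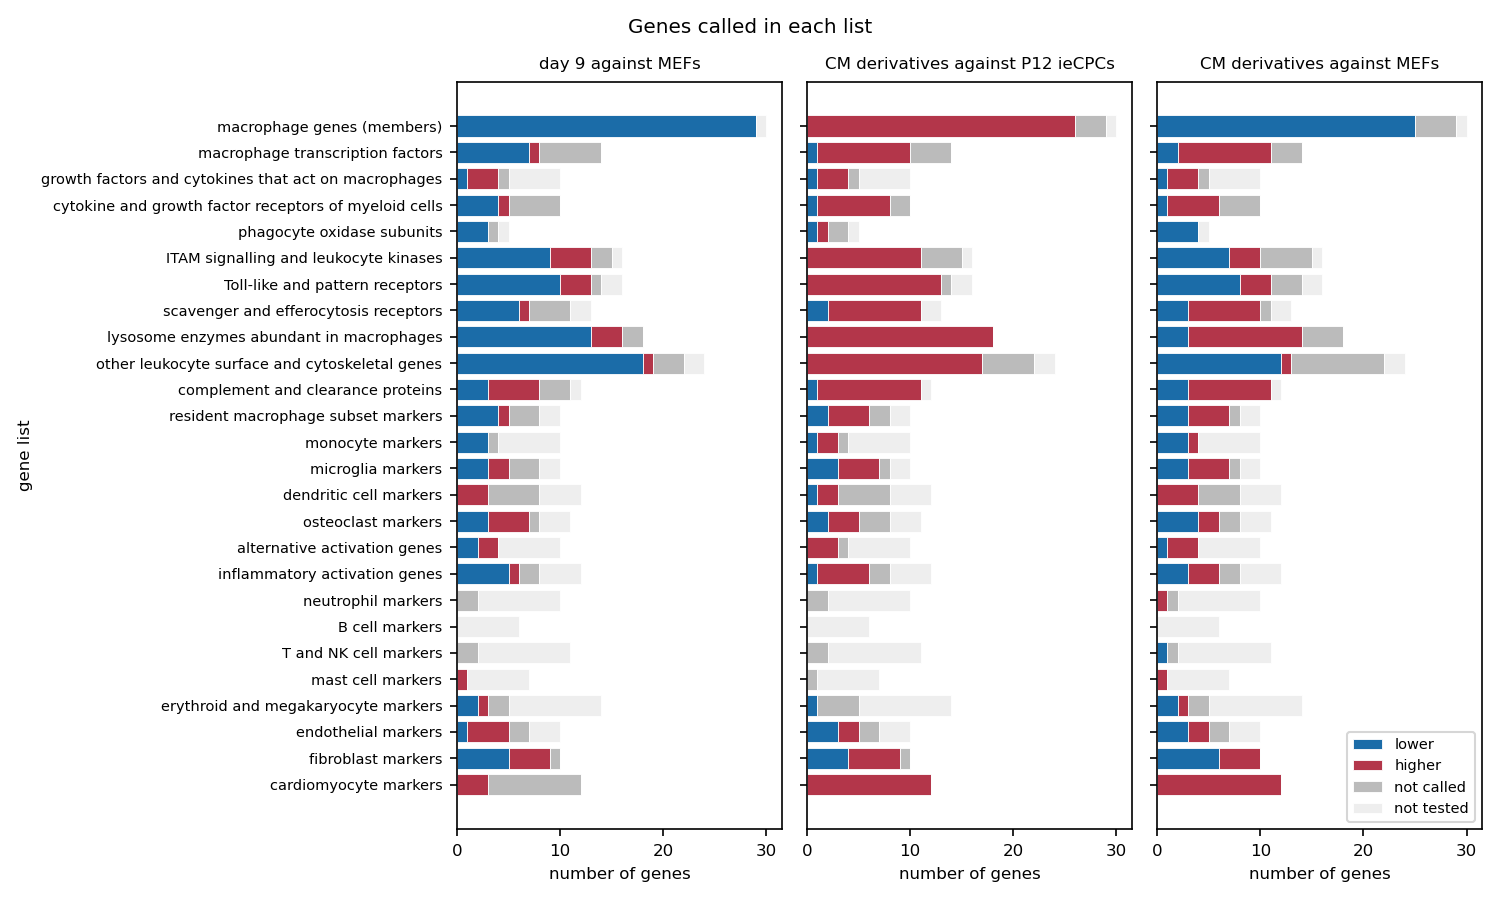
Number of genes called lower, called higher, not called and not tested in each of the 26 gene lists, for day 9 against MEFs, CM derivatives against P12 ieCPCs and CM derivatives against MEFs. The macrophage genes show 29 lower, 26 higher and 25 lower, and B cell, T and NK cell, neutrophil and mast cell lists consist almost wholly of genes with too few counts to test.

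Markers of lymphocytes, mast cells and neutrophils were low in all groups. The 6 B cell genes summed to at most 0.855 CPM in any library, the 11 T and NK cell genes to at most 3.11 CPM, the 7 mast cell genes to at most 0.589 CPM before CM derivatives and to between 1.01 and 1.36 CPM there and the 10 neutrophil genes to between 1.69 and 3.83 CPM. The other blood cell lists were not low throughout. The 14 erythroid and megakaryocyte genes summed to 29.5 to 32.6 CPM in MEFs and 9.05 to 15.8 CPM in the other groups. In MEFs 7 of these 14, the globin genes and Klf1, had 0 counts, and Ppbp held 1864 of the 2443 summed counts. The 12 dendritic cell genes summed to 40.8 to 41.8 CPM at P3 and 15.9 to 31.2 CPM in the other groups. The part of these lists in the members' course was not tested. Among monocyte markers Ccr2, the chemokine receptor of inflammatory monocytes, had 6 counts over the MEF libraries, 2 at day 9, 8 at P3, 3 at P12 and 3 in CM derivatives, and Timd4, a marker of long-lived resident macrophages, had 4, 5, 1, 2 and 0. Cd74, the invariant chain of class II antigen presentation, had 0.603 ± 0.297 CPM in MEFs and 0.968 ± 0.269 in CM derivatives but 7.72 ± 0.166 at P3. Ppbp, a platelet chemokine that some macrophages also make, had 1864 counts over the MEF libraries, 47 at day 9, 7 at P3, 8 at P12 and 6 in CM derivatives, and was 199-fold lower in CM derivatives than in MEFs.

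A few further genes of these lists were picked after their values were seen. Marco, a scavenger receptor of some tissue macrophages, had 0 counts in MEFs, 1 at day 9, 0 at P3 and P12 and 285 over the CM libraries. Atp6v0d2, a proton pump subunit of osteoclasts and some macrophages, had 28 counts in MEFs, 5, 6 and 1 in the middle groups and 482 in CM derivatives, 25.3-fold above MEFs. Msr1, another scavenger receptor, followed the members, with 2147 counts in MEFs, 6, 4 and 0 in the middle groups and 358 in CM derivatives, 4.01-fold below MEFs. Ccl3, a chemokine of activated macrophages, had 115 counts in MEFs, 0 from day 9 to P12 and 138 in CM derivatives.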

How the data were processed

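Per the submitters' processing notes, reads were aligned to mm9 with TopHat2 2.0.13 and counted per gene with featureCounts of Subread. The strand setting is not given in the sources used here. The deposited counts are whole numbers, not normalized, per the file headers, and 30 deposited columns of CPM and length-scaled values were not used. Genes passing filterByExpr of edgeR 4.0.16 (17999) were fitted in 1 quasi-likelihood model over all 15 libraries with a mean per group and TMM scaling, each of 6 comparisons being tested 2-sided with Benjamini-Hochberg adjustment over all tested genes. Simulated counts were used to test the procedure. The words rose, fell and called refer to an adjusted p under 0.05. For a group with 0 counts, the fold places 3 counts over that group, and with 1 to 3 counts a ratio with its counting interval is given where one is printed. The SE is the log2 fold change divided by the square root of F. All members are named; of each other list up to 3 called genes of the highest mean level could be named, as could a defining marker of another cell type, with its counts (Ccr2, Timd4). The members, the 25 other lists and the tests were chosen with earlier results of these data known. Alternatives were RLE and upper-quartile scaling, other filters, DESeq2 1.42.0, limma voom (3.58.1), a replicate block, the 6 compared libraries alone, and each library left out. Promoters are RefSeq's, on GRCm38.p6.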

Additional observations from a re-analysis of the deposited data

How the results depend on the processing

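All 29 tested members were lower at day 9 than in MEFs under every leave-one-out fit, and 28 to 30 members under the other alternatives, as the filter on low counts changed how many were tested. The number lower at P12 against P3 was 1 to 2 without single libraries (Mpeg1 joined Lyz2, log2 fold change -1.29, without P12 replicate 2), and the number lower in CM derivatives against P3 was 0 to 1 (Mrc1, -0.72, without CM replicate 2). The number higher in CM derivatives than in MEFs was 0, and 1 with at least 1 CPM required in 3 libraries and 1 by limma voom, in both cases Cybb. Over all single members, comparisons and settings, 2401 values kept their side of the threshold, 13 passed it and 16 ceased to. Of the latter, 10 were Fcgr1 in CM derivatives against P12. No value called in the fit to all libraries changed direction, and the direction of uncalled values was not compared. Deviations of same-numbered libraries from their group means had correlations of -0.151 to 0.173. Libraries of different number were not compared, so this cannot settle whether the numbers pair the samples. With a replicate block, 26 members and 2001 of all tested genes showed the loss and return pattern, against 26 and 2025 without it. Upper-quartile scaling moved the median of all genes to 0.12 at day 9 against MEFs and to -0.12 in CM derivatives against P12, and left 25 members and 1542 genes in that pattern. Members of a few counts, such as Aif1, Fcgr1 and Ms4a6c, are limited by depth.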
